A study of Mus musculus with 28 samples.

Results

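Ccr7, the gene of a chemokine receptor, and Ccl19, the gene of a chemokine that binds it, were measured in porous implants taken from tumor-bearing and healthy mice. They are 2 of the 584 genes on the array used, found by their symbols in the authors' normalized table, and each is covered by 1 of its 648 assays. Both were selected on their values by day and condition and on shared arrays, so all their differences are given as description, with no test.

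The implants were microporous polycaprolactone scaffolds placed in female BALB/c mice, in which an infiltrate of host immune, stromal and epithelial cells forms. The series set mice inoculated with 4T1-luc2-tdTomato cells, a mouse mammary carcinoma line that carries luciferase and tdTomato reporters, against healthy mice sampled at matched times. Implants came from 3 tumor-bearing and 3 healthy mice at day 7, 8 and 8 at day 14, and 3 and 3 at day 21. Each mouse gave 1 sample. Days count from inoculation, as on the figure axes, and the age of the implant was not separated from them. The series calls the 28 samples biological replicates, and the spread between mice is what every standard deviation (SD), standard error (SE) and p-value here rests on.

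The labels list the tumor line for the healthy mice as well, so the groups follow the condition recorded at the time of analysis, and the age of the mice is not given. All the mice carried an implant, all the tumor-bearing mice carried the same tumor line, and implant tissue is a mixture of cells. In such bulk samples a loss of cells of one type and less RNA per cell cannot be told apart. Of genes looked up to check the tissue, after values had been seen, Cd14 and Fn1 gave a value in 28 of 28 samples, Cd4 in 27, Itgam in 26 and the epithelial keratin gene Krt8 in 23.

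CCR7 is a receptor of mature dendritic cells, of naive and central memory T cells and of B cells. CCL19 and CCL21 draw cells that carry it toward lymphatic vessels and into the T cell zones of lymph nodes, where stromal cells and dendritic cells are sources of CCL19. In tissues outside lymph nodes, CCR7 is best known for the exit of antigen-bearing dendritic cells and T cells through lymphatic vessels.

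Levels are log2 relative quantities, which are minus the difference in quantification cycle (Cq, the cycle of PCR in which the signal becomes detectable, lower with more template) between a gene and reference genes. One unit is 1 doubling, and values of different assays are not set against each other, apart from sums over gene lists. Of 18144 reactions, 12.4% gave no Cq, and samples had values for 475 to 587 assays. The 3 samples under 550 assays, which were healthy replicates 13 and 14 and tumor-bearing replicate 21, all of day 14, stood apart from the others at 560 to 587. Of the 7 arrays, called panels A to G here, panel G held only 4 day 14 tumor-bearing samples and panel D only 4 day 14 healthy samples.

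Ccr7 was lower in tumor-bearing than in healthy implants by 0.62 to 1.18 log2 units at the 3 days, and the separation of mice was complete at days 7 and 21. Its assay amplifies 78 bases and gave a value in 28 of 28 samples, at raw Cq of 21.78 to 24.54. Over all mice the level spanned 2.32 log2 units, or 4.99-fold.

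At day 7, Ccr7 stood at -4.84, -5.01 and -5.34 in tumor-bearing replicates 4, 5 and 6, against -4.57, -4.23 and -4.51 in healthy replicates 1, 2 and 3. Every tumor-bearing mouse was below every healthy mouse, with 0.26 log2 units between the nearest values. The means were -5.06 ± 0.26 in tumor-bearing and -4.44 ± 0.18 in healthy mice (SD, n = 3 each).

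At day 14 the Ccr7 level in the 8 tumor-bearing mice had a lowest value of -6.01, a median of -5.40 and a highest value of -4.95, and in the 8 healthy mice a lowest value of -5.35, a median of -4.72 and a highest value of -4.27. The groups overlapped. Healthy replicates 7 and 11 were low, at -5.35 and -5.29, and the other 6 healthy mice were above every tumor-bearing mouse. All 8 tumor-bearing mice were below the healthy median, and 4 of them were below every healthy mouse. The means were -5.41 ± 0.44 and -4.75 ± 0.41 (SD, n = 8 each).

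At day 21 Ccr7 stood at -4.93, -5.35 and -5.14 in tumor-bearing replicates 26, 27 and 28, against -3.69, -3.90 and -4.30 in healthy replicates 23, 24 and 25. The groups were again apart, with 0.63 log2 units between the nearest values. The healthy implants of this day held the highest Ccr7 levels of the series apart from replicate 25, which was near the top of the day 7 and day 14 healthy mice. The means were -5.14 ± 0.21 in tumor-bearing and -3.96 ± 0.31 in healthy mice (SD, n = 3 each).

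Pooled over days, all 14 tumor-bearing mice had a Ccr7 level below the median of the 14 healthy mice. Of the healthy mice, 12 of 14 were above every tumor-bearing mouse, and 5 of 14 tumor-bearing mice were below every healthy mouse. The share of all assays with such counts, pooled or at day 14, was not computed. Ccr7 was chosen by these same values, so nothing is read from the counts.

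**Figure D1:**
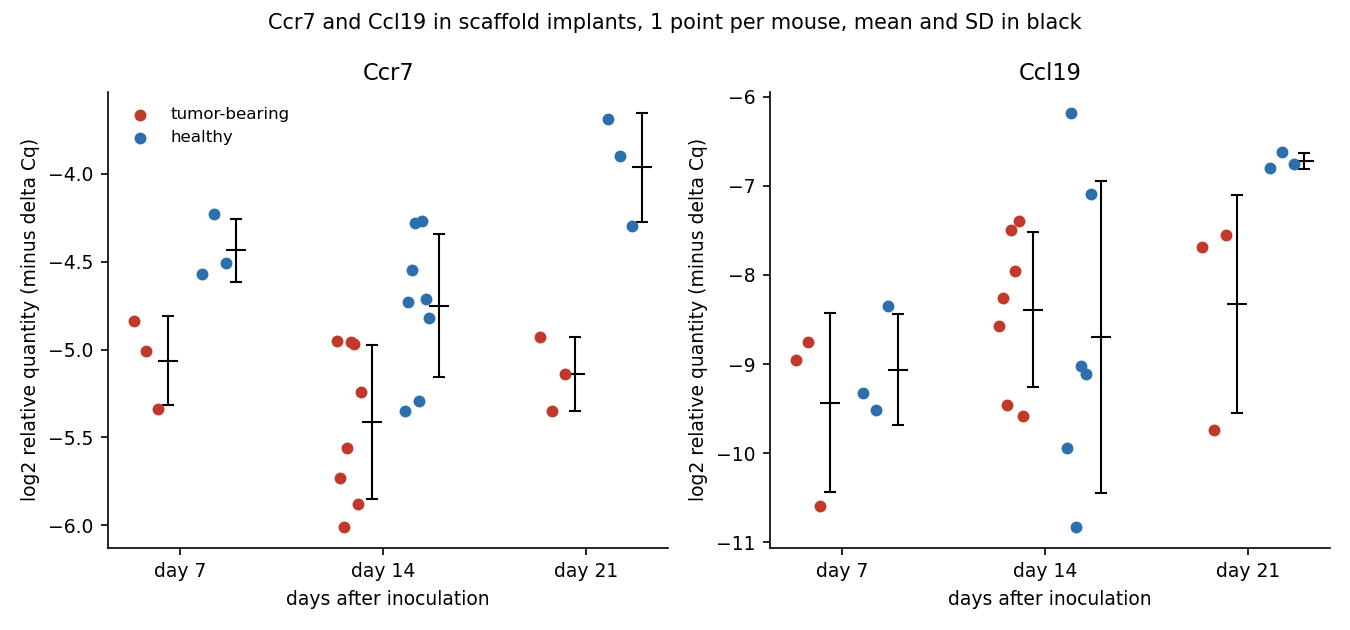
Log2 relative quantity (vertical axes) of Ccr7 (left) and Ccl19 (right) by day, 1 point per mouse, tumor-bearing in red and healthy in blue, with the mean and SD of each group in black. Ccr7 separates the conditions at days 7 and 21, and Ccl19 at day 21, where the 3 healthy mice lie within 0.18 log2 units.

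Estimates with an SE came from one limma model over all assays and all 28 mice with the panel as a random block, and the intervals of Ccr7 and Ccl19 describe precision and are not read as tests. Ccr7 in tumor-bearing minus healthy mice was -0.62 ± 0.29 (SE) at day 7, which is 0.65 times the healthy level (95% interval 0.427 to 0.99). At day 14 the difference was -0.64 ± 0.19, or 0.64 times (0.488 to 0.839), and at day 21 it was -1.18 ± 0.29, or 0.442 times (0.29 to 0.673). Without the 3 samples of fewest assays, the day 14 difference was -0.60 ± 0.21. With the days weighted equally the difference was -0.81 ± 0.15, or 0.568 times (0.457 to 0.707). The authors' deposited table gives Ccr7 fold changes of 0.65, 0.632 and 0.442 for the same days.

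The Ccr7 difference at day 21 was 0.54 log2 units larger than that at day 14, with an interval of this change of -1.26 to 0.19. Between days 7 and 14 the difference changed by -0.02 ± 0.35. Over time, Ccr7 in healthy mice was 0.81 ± 0.25 log2 units higher at day 21 than at day 14, or 1.75-fold (1.23 to 2.51). In tumor-bearing mice the same step was 0.28 ± 0.25, or 1.21-fold (0.846 to 1.73).

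In order of mean level, Ccr7 was lowest in day 14 tumor-bearing mice, followed by day 21 and day 7 tumor-bearing mice, and then day 14, day 7 and day 21 healthy mice. The 3 tumor-bearing means thus stood below the 3 healthy ones. Of the 5 steps in this order, only the last, of 0.48 log2 units between day 7 and day 21 healthy mice, exceeded the larger SD of the neighbours, which was 0.31. The steps between tumor-bearing means were 0.27 and 0.08.

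As background to counts of separated groups, the assays measured in all 6 mice of day 7 had every tumor-bearing value below every healthy value in 17 of 520 cases (3.27%), and those of day 21 in 35 of 498 (7.03%). Nothing is read from these shares for Ccr7 or Ccl19, which were chosen by these same values.

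Mice that share a day and an array give 10 pairs, each compared within 1 array. Ccr7 was lower in the tumor-bearing mouse in 9 of 10 pairs, with a mean pair difference of -0.74 ± 0.52 (SD). The day 7 differences were -0.26 on panel A, -0.77 on panel B and -0.83 on panel C. Those of day 14 were 0.33 on panel A, -0.70 on panel B, -1.16 on panel E and -0.42 on panel F. Panel A of day 14, where healthy replicate 11 was low, was the exception. The day 21 differences were -0.84 on panel C, -1.24 on panel E and -1.46 on panel F, the last being the largest of the 10. Over assays measured in all 10 pairs, 7 of 319 (2.19%) were lower in the tumor-bearing mouse in at least 9, a count that holds Ccr7 by its choice.

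The day 14 Ccr7 difference was -0.49 on the 4 mixed panels A, B, E and F, where 4 tumor-bearing mice averaged -5.26 ± 0.43 and 4 healthy mice -4.77 ± 0.42 (SD). On panels G and D, which held 1 condition each, it was -0.83, with means of -5.56 ± 0.45 and -4.73 ± 0.45. Panel and condition cannot be told apart for those 8 samples.

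**Figure D2:**
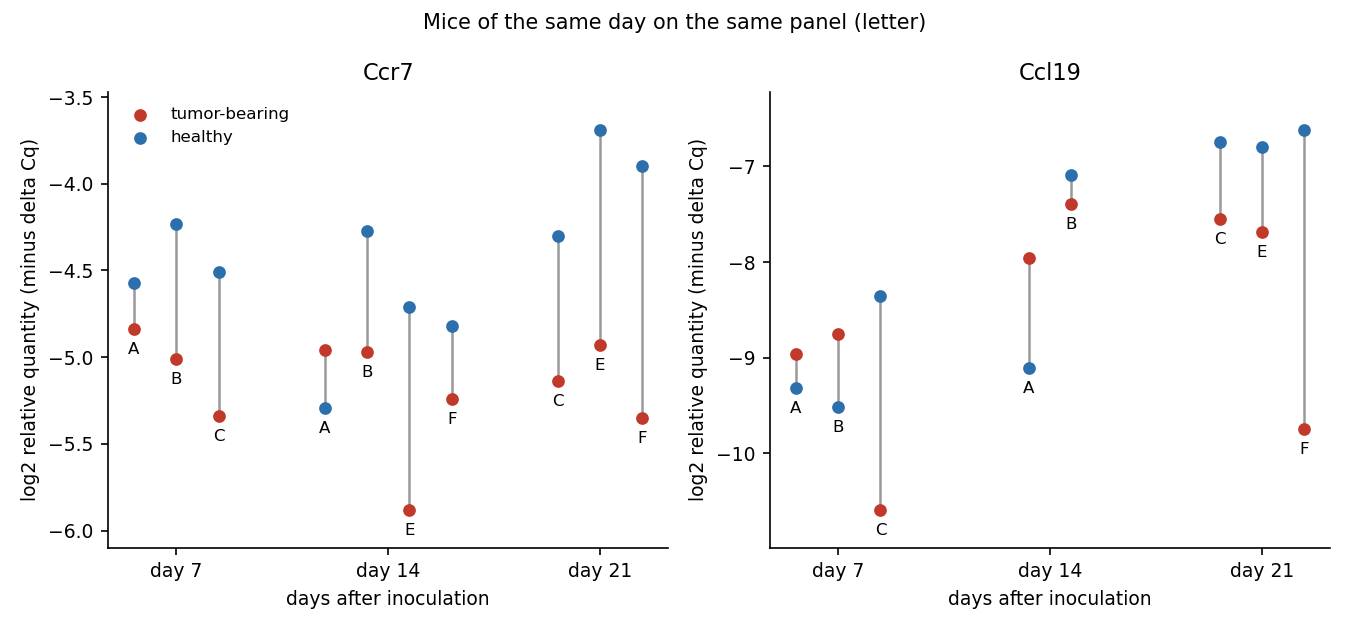
Log2 relative quantity (vertical axes) of Ccr7 (left) and Ccl19 (right) in the tumor-bearing (red) and healthy (blue) mouse that share a day and a panel, joined by a line with the panel's letter. For Ccr7 the red point lies lower in 9 of 10 pairs, and for Ccl19 in 5 of the 8 pairs with both values.

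Ccl19 was spread over a wide range of levels between mice, with an SD over all of them of 1.28 against 0.57 log2 units for Ccr7, and its groups were apart at day 21 but not at days 7 and 14. Its assay amplifies 79 bases and gave a value in 25 of 28 samples, at raw Cq of 24.85 to 29.43. The level spanned 4.66 log2 units, or 25.2-fold, the whole of it within the day 14 healthy mice. The samples without a value were day 14 tumor-bearing replicate 21 and day 14 healthy replicates 13 and 14, the same 3 that had the fewest assays measured, so a missing Ccl19 value cannot be told apart from a poor sample.

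A limit of the Ccl19 assay is that its class, by the supplier's naming, may also detect genomic DNA; per the labels' protocols, the RNA was treated with DNase. NCBI RefSeq's GRCm38.p6 annotation further lists transcribed Ccl19 pseudogenes, and an untranscribed one, on the chromosome of Ccl19. Whether the assay amplifies them was not tested.

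At day 7, Ccl19 stood at -8.96, -8.75 and -10.59 in tumor-bearing replicates 4, 5 and 6, against -9.32, -9.52 and -8.35 in healthy replicates 1, 2 and 3. The groups overlapped, with the lowest value in a tumor-bearing mouse and the highest in a healthy one. The means were -9.43 ± 1.01 and -9.06 ± 0.62 (SD, n = 3 each).

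At day 14 the Ccl19 level in the 7 tumor-bearing mice with a value had a lowest value of -9.58, a median of -8.26 and a highest value of -7.39, and in the 6 such healthy mice a lowest value of -10.83, a median of -9.07 and a highest value of -6.18. The healthy mice reached both below and above all the tumor-bearing mice. Healthy replicates 8 and 12 were high, at -6.18 and -7.09, and replicates 9 and 7 were low, at -10.83 and -9.94. The means were -8.39 ± 0.87 (SD, n = 7) in tumor-bearing and -8.69 ± 1.75 (SD, n = 6) in healthy mice.

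At day 21 Ccl19 stood at -7.69, -9.74 and -7.55 in tumor-bearing replicates 26, 27 and 28, against -6.80, -6.62 and -6.75 in healthy replicates 23, 24 and 25. The 3 healthy mice were alike and each was above every tumor-bearing mouse, by 0.75 log2 units at the nearest. Tumor-bearing replicate 27 was far below the others. The means were -8.33 ± 1.23 and -6.73 ± 0.09 (SD, n = 3 each).

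Ccl19 in tumor-bearing minus healthy mice was -0.37 ± 0.89 (SE) at day 7, or 0.773 times the healthy level (0.213 to 2.81). At day 14 it was 0.30 ± 0.65, or 1.23 times (0.481 to 3.14), a fit that leaves out the 3 samples without a value. At day 21 the difference was -1.60 ± 0.90, or 0.33 times (0.0907 to 1.2).

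Tumor-bearing replicate 27 moves the day 21 Ccl19 difference by more than 1.5 times: without it, the difference was -0.91. At day 14 the sign rested on single mice and on the panels, with 0.77 without healthy replicate 8 and -0.10 without healthy replicate 9. Averaged over the days, the Ccl19 difference was -0.56 ± 0.47, or 0.679 times (0.343 to 1.34). The authors' deposited table gives Ccl19 fold changes of 0.773, 1.24 and 0.33 for days 7, 14 and 21.

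The Ccl19 estimates of both conditions were higher at later days. The healthy level was 2.42 ± 0.91 log2 units higher at day 21 than at day 7, or 5.34-fold (1.44 to 19.9), of which 1.98 ± 0.81 lay between days 14 and 21. In tumor-bearing mice the step over days 7 to 21 was 1.19 ± 0.91, or 2.28-fold (0.614 to 8.46), of which 1.10 ± 0.78 lay between days 7 and 14. The Ccl19 condition difference changed by -1.90 ± 1.11 between days 14 and 21, with an interval of -4.20 to 0.40.

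The lowest mean Ccl19 levels were those of day 7 tumor-bearing and then day 7 healthy mice. Day 14 healthy, day 14 tumor-bearing, day 21 tumor-bearing and day 21 healthy mice followed in that order. Only the last step, of 1.60 log2 units between the conditions at day 21, exceeded the larger SD of the neighbours, which was 1.23. The other 4 steps were 0.06 to 0.37 log2 units, each within the larger SD, so the order before the last step is not settled.

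On shared panels, Ccl19 was lower in the tumor-bearing mouse in 5 of 8 pairs that had both values. The day 7 pairs differed by 0.36 on panel A, 0.77 on panel B and -2.24 on panel C. At day 14 they differed by 1.15 on panel A and -0.31 on panel B. At day 21 all 3 differences were negative, at -0.80 on panel C, -0.88 on panel E and -3.12 on panel F. On the mixed panels of day 14 the means were -8.31 ± 1.14 in 3 tumor-bearing and -8.10 ± 1.43 in 2 healthy mice (SD), a difference of -0.21, while on panels G and D the difference was 0.55.

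Receptor and ligand varied together only loosely. Over the 25 mice with both values, Pearson's r of Ccr7 and Ccl19 was 0.39 and Spearman's rho 0.38. Both values of a mouse come from the same cDNA, panel and reference genes. Without healthy replicates 23 and 24 of day 21, farthest from the median of Ccr7, r was 0.21. Within tumor-bearing mice r was 0.28 (n = 13), and within healthy mice 0.49 (n = 12). For deviations from the 6 group means it was 0.34, and 0.19 without the 2 farthest mice.

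**Figure D3:**
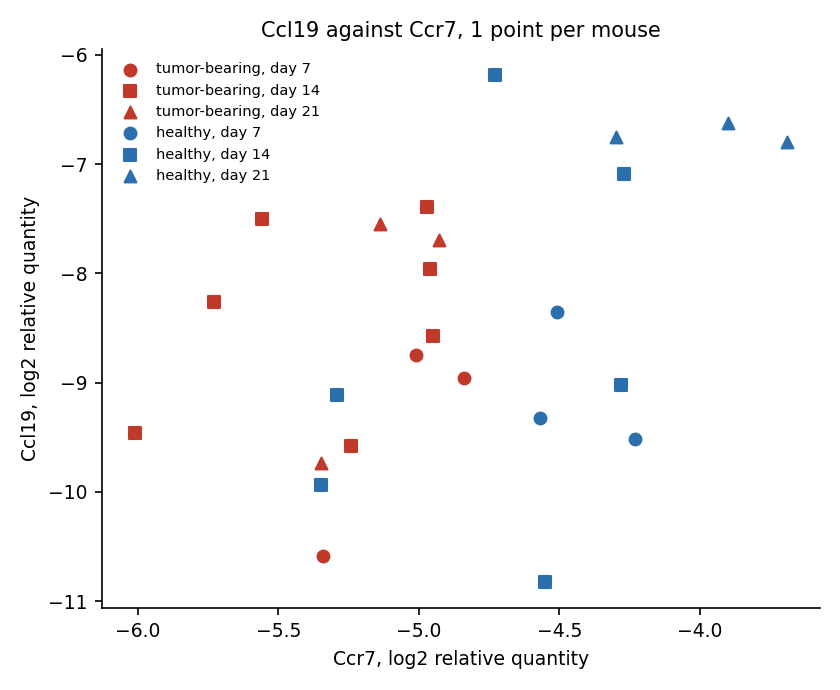
Log2 relative quantity of Ccl19 (vertical axis) against that of Ccr7 (horizontal axis) in the 25 mice with both values, by condition (colour) and day (shape). The 3 day 21 healthy mice lie at the upper right, and Ccl19 spans a wide range at similar Ccr7 (r = 0.39).

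Among the 311 other assays with a value in all 28 mice, those whose level ran most like that of Ccr7 were Ccl5 (r = 0.80), Stat4 (0.66), Siva1 (0.66), Ccl4 (0.64), Cd28 (0.61) and Tlr1 (0.60), against a median of 0.06. With group means removed, r with Ccr7 was 0.63 for Ccl5, 0.44 for Stat4, 0.59 for Siva1, 0.59 for Ccl4, 0.67 for Cd28 and 0.65 for Tlr1. Ccl5 and Ccl4 encode inflammatory CC chemokines, Stat4 a transcription factor of IL-12 signaling, and Cd28 a costimulatory receptor of T cells. These r share samples, panels and reference genes.

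Of these 6 genes only Ccl5 passed an adjusted p of 0.05 in a condition comparison. The 6 were picked by r with Ccr7 over both conditions, and Ccr7 was chosen by its condition values. Their condition differences and pair counts thus partly repeat that choice and are given as description. Ccl5 averaged -3.54 ± 0.22, -3.41 ± 0.45 and -3.31 ± 0.59 in tumor-bearing mice at days 7, 14 and 21, against -2.95 ± 0.29, -2.98 ± 0.40 and -2.23 ± 0.19 in healthy mice (SD). Its difference over the mean of the days was -0.71 (limma, adjusted p = 0.0135), it was lower in 9 of 10 pairs, and without day 7 healthy replicate 2 its adjusted p was 0.0525. Stat4 was also lower in 9 of 10 pairs, with a difference of -0.56 over the mean of the days (adjusted p = 0.147). Ccl4 was lower in 10 of 10 pairs, at -0.52 (limma, adjusted p = 0.381). Siva1 was lower in 8, Tlr1 in 6 and Cd28 in 5 of 10 pairs.

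For Ccl19, over 25 mice and 312 assays with a median r of 0.09, the assays reported among the most alike were Pla2g2d (r = 0.78), C3 (0.73), Mgll (0.71), Pla2g7 (0.70) and Trf (0.66). With group means removed, r was 0.70, 0.77, 0.59, 0.70 and 0.68 in the same order. Pla2g2d encodes a secreted phospholipase A2, C3 the central complement component, Mgll a lipase that breaks down monoglycerides, and Trf transferrin. None of these 5 passed an adjusted p of 0.05 in a condition comparison; their adjusted p over the mean of the days ran from 0.642 to 0.968 in limma. Ccr7 itself was at rank 41 of the 312. The genes named as most like Ccr7 and as most like Ccl19 had no gene in common.

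Pathway genes were read from the same model, with p-values adjusted over all assays. At day 7, 0 of 565 assays passed an adjusted p of 0.05 in limma (0%), and 13 had an unadjusted p under 0.05. At day 14, 10 of 588 were higher (1.7%) and 4 lower (0.68%). At day 21, 6 of 573 were higher (1.05%) and 1 lower (0.175%). Over the mean of the days, 10 of 559 were higher (1.79%) and 4 lower (0.716%). The 14 calls of day 14 were 8 without healthy replicate 11 or tumor-bearing replicate 22, and the 7 of day 21 were 2 without healthy replicate 23 and 3 without healthy replicate 24 or 25. The 14 over the mean of the days were 8 without healthy replicate 3 and 9 without healthy replicate 1, 2 or 24 or tumor-bearing replicate 4, 5 or 28. The median difference over all assays tested was 0.03, -0.08 and 0.00 at days 7, 14 and 21, and -0.05 over the mean of the days.

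Of the other ligands, scavenging receptors and lymphoid chemokines around CCR7, 5 genes of a list of 15 were measured, and 0 of 5 passed in any of these comparisons, with a median difference of -0.06 over the mean of the days. The genes of CCL21, the other CCR7 ligand, are not analysed here. Ccrl1 (now Ackr4), an atypical receptor that takes up CCL19 and CCL21, differed by -0.19 ± 0.20 over the mean of the days (limma, adjusted p = 0.824). Its means were -7.57 ± 0.72, -6.92 ± 0.33 and -6.86 ± 0.79 in tumor-bearing mice at days 7, 14 and 21, against -7.49 ± 0.64, -6.51 ± 0.43 and -6.78 ± 0.38 in healthy mice (SD).

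Cxcr4, the CXCL12 receptor, had a day 21 difference of 5.74 ± 1.54 (limma, adjusted p = 0.073) that rests on 1 reaction. The tumor-bearing mice of that day had values of -0.06 and 11.57, 1 mouse having none, against -0.12 to 0.26 in the 3 healthy mice. Its 4 other group means were -0.35 to -0.18.

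Dendritic cell maturation and antigen presentation genes had mostly negative estimates, and 1 of them passed. Of 12 assays for 11 genes, 10 had a negative estimate over the mean of the days, as did 58.3% of all assays tested, with a median of -0.17; at day 21 the median was -0.26 and 0 of 12 passed. The gene that fell was Ccl22, a chemokine of mature dendritic cells and macrophages that binds CCR4. It averaged -4.40 ± 0.38, -4.84 ± 0.39 and -4.63 ± 0.23 in tumor-bearing mice at days 7, 14 and 21, against -4.01 ± 0.24, -4.29 ± 0.33 and -3.48 ± 0.19 in healthy mice (SD). The day 21 tumor-bearing mean rests on 2 mice, as the other had no Ccl22 value. Its difference over the mean of the days was -0.69 ± 0.15 (limma, adjusted p = 0.00683), with the tumor-bearing mouse lower in 8 of 9 pairs. The share of assays with such a pair count was not computed. With missing reactions given the largest Cq, Ccl22 did not pass (-2.53, limma, adjusted p = 0.657).

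The Ccl22 steps lay beside those of Ccr7. Differences at days 7, 14 and 21 were -0.39, -0.53 and -1.14 for Ccl22, and -0.62, -0.64 and -1.18 for Ccr7. Both came from the same mice and reference genes, except a day 21 tumor-bearing mouse without a Ccl22 value. At day 21 the IL-12 subunit gene Il12b, read by 2 assays, had differences of -1.28 ± 0.52 and -1.88 ± 0.64 (limma, adjusted p = 0.424 and 0.259), and Ccl17, a second CCR4 ligand, -1.20 ± 0.59 (adjusted p = 0.568); Il12b and Ccl17 were picked after their values were seen. The costimulatory genes Cd80 and Cd86 were at -0.15 ± 0.21 and 0.18 ± 0.46 at day 21 (adjusted p = 0.984 and 0.995).

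T cell markers had a median of -0.72 over the mean of the days, where 8 assays were tested, 7 had a negative estimate and 0 passed. Icos, a costimulatory receptor of activated T cells, was lower in 9 of 9 pairs, at -0.84 ± 0.30 (limma, adjusted p = 0.243). The share of assays with such a count over 9 pairs was not computed, so nothing is read from it. Ctla4, an inhibitory receptor, differed by -0.89 ± 0.37 (adjusted p = 0.395). The B cell list had 1 measured gene, Cr2, a complement receptor of B cells and follicular dendritic cells, at -1.02 ± 0.46 (adjusted p = 0.46).

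Chemokine receptors other than Ccr7 numbered 21 genes in 24 assays, with a median of -0.16 over the mean of the days, and 0 of them passed as lower in any of the comparisons. Il8rb (now Cxcr2), a receptor of neutrophils, rose at day 14 by 1.39 ± 0.26 (limma, adjusted p = 0.00344) and over the mean of the days by 0.77 ± 0.20 (adjusted p = 0.0441), the second of which did not hold in 19 of 28 fits with 1 mouse left out. The lymphotoxin and NF-kappaB genes, a pathway upstream of Ccl19 in lymphoid stroma, had 0 calls among 8 assays in all 4 comparisons and a median of -0.03 over the mean of the days. There Tnf differed by -0.37 ± 0.27 (adjusted p = 0.704) and Tnfrsf1b by 0.11 ± 0.08 (adjusted p = 0.71).

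The remaining lists gave 0 calls in all 4 comparisons. Prostaglandin E2 genes (3 assays) had a median of -0.18 over the mean of the days, endothelial and stromal markers (4) -0.17, monocyte and macrophage markers (6) 0.26 and housekeeping genes (19) 0.04. Named from them by rule were Ptgs1 at -0.18 and Ptgs2 at -1.23 (-0.72 without day 14 healthy replicate 14, whose Ptgs2 value of 6.18 lay far above the next at -3.76), Fn1 at 0.11 and Tnfsf11 at -0.18, Ccr2 at 0.38 and Cd163 at 0.47, and Gusb at 0.14 and Tfrc at 0.20, with adjusted p of 0.569 to 0.903 in limma.

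**Figure D4:**
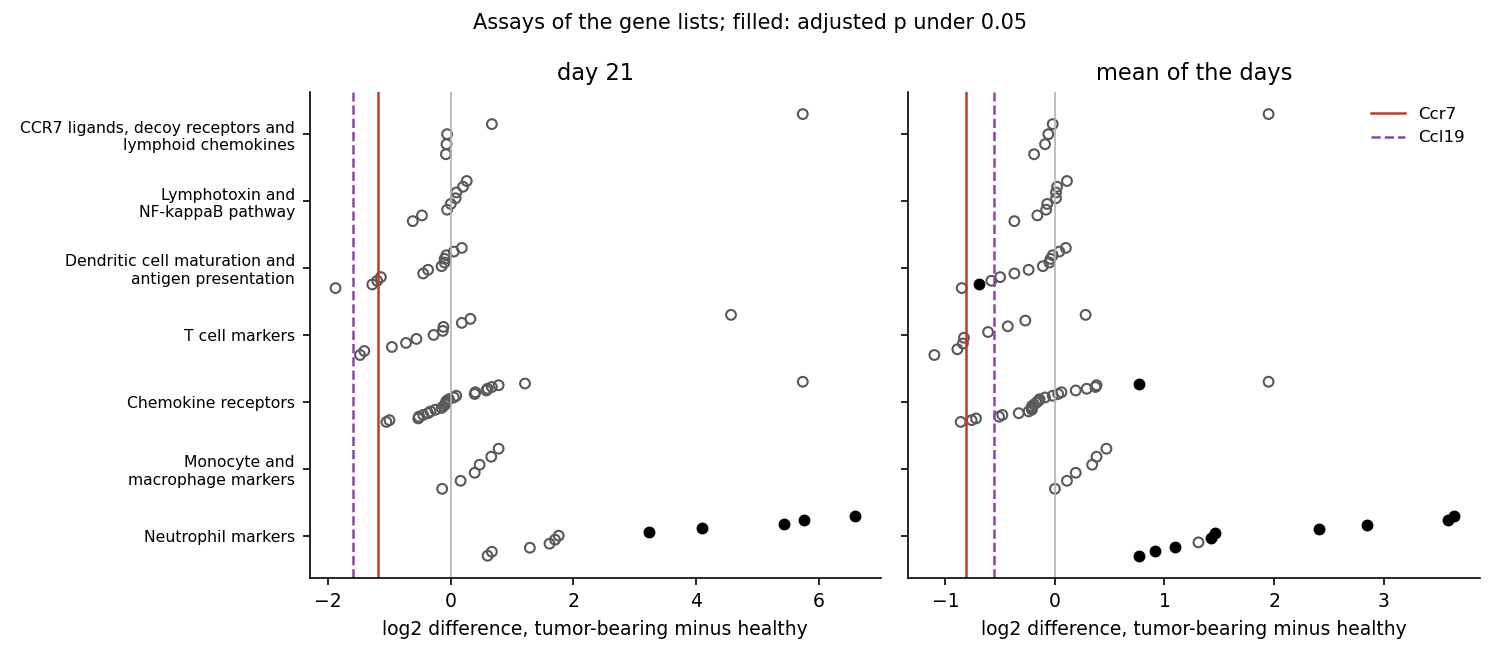
Log2 difference of tumor-bearing minus healthy mice (horizontal axis) at day 21 (left) and over the mean of the days (right) for the assays of 7 gene lists, filled where the adjusted p is under 0.05, with Ccr7 and Ccl19 as vertical lines. Ccr7, at -1.18 and -0.81, lies below most listed assays, but it was chosen by these same values. Over the mean of the days, at least 1 assay each of Ifng, Ctla4, Icos, Ccr8 and Il12b lies lower still. The filled points are neutrophil markers except for Ccl22 in the dendritic cell list, at -0.69.

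Neutrophil markers ran opposite to Ccr7. They rose in 10 of 10 assays tested at day 14 and in 5 of 11 at day 21. Over the mean of the days 9 of 10 rose, against 0 of 10 at day 7. Of all assays tested, 1.7%, 1.05% and 1.79% were higher at day 14, at day 21 and over the mean of the days. The neutrophil list, which holds 2 assays of S100a8, was chosen with earlier results of these data known. Its counts can thus partly repeat that choice. With missing reactions given the largest Cq of the table, 4, 0 and 1 of 11 were higher at day 14, at day 21 and over the mean of the days. With the day 14 samples alone it was 6 of 10 at that day, and with only assays measured in every sample 3 of 3, 0 of 3 and 2 of 3. The day 21 count was 2 without healthy replicate 23 or 24 and 3 without healthy replicate 25. The count over the mean of the days was 3 without healthy replicate 3, and 5 without healthy replicate 1, 23 or 24 or tumor-bearing replicate 4 or 5. Their summed relative quantity was 8.1 to 14.9 in tumor-bearing and 3.02 to 4.82 in healthy mice at day 21, and 1.23 to 9.99 and 0.441 to 2.19 at day 14. The 2 S100a8 assays and S100a9 weighed most in it, with log2 means of 1.51, 2.25 and 1.64 in day 21 tumor-bearing mice. The other neutrophil assays averaged -1.88 or lower there. At day 7 the neutrophil sums overlapped, at 2.48 to 3.47 (median 3.12) in tumor-bearing and 1.57 to 3.29 (median 1.98) in healthy mice.

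Summed dendritic cell genes ran from 0.737 to 0.762 in tumor-bearing and 0.827 to 0.939 in healthy mice at day 21. They overlapped at day 14 at 0.622 to 0.778 and 0.454 to 1.03, and at day 7 at 0.694 to 0.802 and 0.666 to 0.882. At day 21, 7.03% of single assays measured in all 6 mice were apart in the same direction, and no such share was computed for sums. Of the 12 assays in the dendritic cell sum, 0 passed an adjusted p of 0.05 at that day. A reaction without a value added nothing to a sum, so low sums can reflect missing reactions. Ccl22, for instance, had a value in only 2 day 21 tumor-bearing mice. Summed T cell genes were 1.59 to 1.7 in tumor-bearing and 1.37 to 1.64 in healthy mice at day 7, 1.02 to 2.31 and 0.528 to 2.05 at day 14, and 1.61 to 23.3 and 1.36 to 1.5 at day 21. The 23.3, in tumor-bearing replicate 26, was mostly 1 Cd40lg reaction at 21.4. In the other 5 mice of day 21, Il7r, a cytokine receptor gene that is also expressed outside T cells, made up nearly the whole sum. Without Il7r the sum was 0.0179 and 0.0505 in those tumor-bearing mice and 0.0902 to 0.0956 in healthy mice. At day 14 the sums without Il7r overlapped, at 0.032 to 0.0561 in tumor-bearing and 0.0314 to 0.0874 in healthy mice. At day 7 they were 0.0276 to 0.0493 and 0.0526 to 0.0566. Il7r had a difference of 0.28 over the mean of the days, unlike the 7 T cell assays with negative estimates. All 12 dendritic cell assays gave a value in every group, and of the T cell genes Il2 gave none at day 7 in 1 of its 2 assays. Summed monocyte and macrophage genes were 3.52 to 7 and 4.5 to 4.91 at day 21. The part of these cells in the Ccr7 and Ccl19 levels was not tested.

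The Ccr7 difference kept its sign in 155 of 155 recalculations. That of Ccl19 was negative in 112 of 151, its day 14 value in most cases being positive. Many of these fits left out a mouse of another day, which hardly moves the difference of a given day. At days 7 and 21 the Ccr7 groups did not overlap, so leaving out 1 mouse could hardly turn the sign there. The recalculations are thus not separate checks. Leaving out single mice moved Ccr7 between -0.75 and -0.49 at day 7, between -0.73 and -0.57 at day 14 and between -1.35 and -1.04 at day 21.

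**Figure D5:**
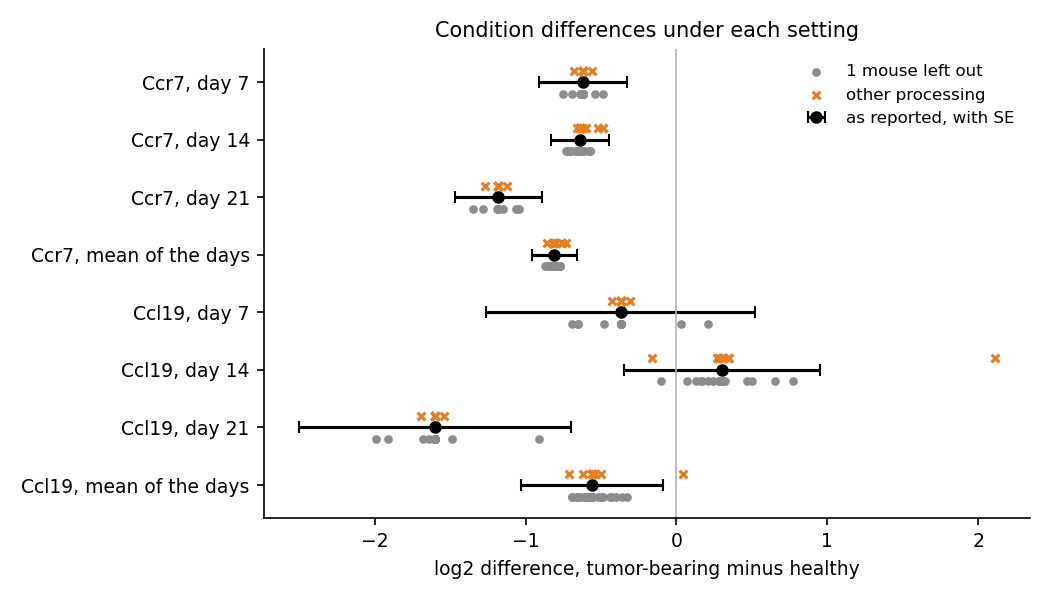
Log2 difference of tumor-bearing minus healthy mice (horizontal axis) for Ccr7 and Ccl19 at each day and over the mean of the days, as reported with its SE (black), with 1 mouse left out (grey) and under other processing (orange). All Ccr7 points lie below 0, and the Ccl19 points at days 7 and 14 and over the mean of the days fall on both sides.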

How the data were processed

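Raw Cq (a score: the PCR cycle of detection) and normalized ratios for 28 samples were deposited by the authors, per the file headers, together with a table of fold changes for each day. Per the labels' protocols, total RNA was treated with DNase, reverse transcribed and measured with TaqMan OpenArray inflammation panels; the software that called the cycles is not given in the sources used here. The header does not name the reference genes; from the values, the deposited ratio equals the cycle difference from the mean of 5 of the 16 assays marked as references, within 2.96e-05 cycles. Amplicon lengths are in the deposited annotation, per the file headers, in bases, a unit of another kind than the measurements.

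Log2 ratios were fitted with limma 3.58.1 in R 4.3.3 (lmFit, eBayes), with 6 group means and the panel as a random block (statmod 1.5.0, correlation 0.0535), and p-values were adjusted by Benjamini-Hochberg over each comparison. Missing reactions stayed missing in the fits and added nothing to the sums over gene lists. An assay was tested with values in at least 50% of a group's samples (609 assays) and 2 values in each group compared. The code was tested on simulated data. Intervals are 95%.

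Ccr7, Ccl19 and the 11 gene lists were chosen with earlier results of these data known. Named genes were, per list, those past an adjusted p of 0.05, otherwise the 2 with the smallest p over the mean of the days, and the 6 assays most alike each member by Pearson's r, of which 1 for Ccl19 is not reported here. Alternatives changed the normalization, missing values, panel term, detection filter, deviating reactions, samples fitted and single mice. Precision is limited by the number of mice.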

Additional observations from a re-analysis of the deposited data

Results flagged for a closer look

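Of 80 groups of 4 to 10 mice examined, 5 held a value far from the rest, and chance gives about 1 in 20 groups; none concerned Ccr7 or Ccl19. At day 14, tumor-bearing replicate 15 had the lowest Tnf, at -6.50 (next -4.35), and the lowest Ptgs1, at -7.46 (next -4.80). Tumor-bearing replicate 18 had the lowest Cxcr4, at -0.62 (next -0.28). Healthy replicate 14, 1 of the 3 samples with the fewest assays measured, had the highest Ptgs2, at 6.18 (next -3.76), and the highest Ccr2, at 0.92 (next -0.56). The cause of these values was not tested.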

How the results depend on the processing

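No paired analysis was possible because replicate numbers, which run from 1 to 28, are not shared between groups; mice were set side by side by shared panel instead, and with the panel as a fixed block Ccr7 differed by -0.62, -0.49, -1.18 and -0.76 at days 7, 14 and 21 and over the mean of the days. Ccr7 differences stayed negative under every alternative run: -0.68 to -0.56 at day 7, -0.66 to -0.49 at day 14, -1.27 to -1.12 at day 21 and -0.86 to -0.73 over the mean of the days. Leaving out 1 mouse gave -0.75 to -0.49, -0.73 to -0.57, -1.35 to -1.04 and -0.87 to -0.77. For Ccl19, 145 of 151 alternatives stayed within the spread and sign reported, many of them fits without a mouse of another day. With reactions without a Cq given the table's largest Cq, the day 14 difference was 2.11 and the mean of the days 0.04, since 2 of the 3 missing values are healthy; without panels D and G the day 14 difference was -0.16. Leaving out 1 mouse gave -0.69 to 0.21 at day 7 (0.21 without tumor-bearing replicate 6, 0.03 without healthy replicate 3), -0.10 (without healthy replicate 9) to 0.77 at day 14, -1.99 to -0.91 at day 21 and -0.69 to -0.33 over the mean of the days. Without the 3 samples under 550 assays, an alternative chosen after seeing the data, Ccr7 differed by -0.60 at day 14 and -0.80 over the mean of the days; those samples have no Ccl19 value, so this says nothing of Ccl19. The number of assays passing was 0, 14, 7 and 14 at days 7, 14 and 21 and over the mean of the days. With the largest Cq in place of missing ones it was 1, 4, 0 and 4; over assays with a value in all 28 samples it was 3 at day 14, 1 at day 21 and 6 over the mean of the days; with the day 14 samples alone it was 6. Leaving out 1 mouse gave 0 at day 7, 8 to 15 at day 14, 2 to 8 at day 21 and 8 to 15 over the mean of the days. Ccl22 did not pass under the same replacement (-2.53, adjusted p = 0.657). The causes were not tested except where stated.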
